A study of Homo sapiens with 12 samples.

Results

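The 10 genes described here encode the D-type cyclins (CCND1, CCND2 and CCND3), the E-type cyclins (CCNE1 and CCNE2), the cyclin-dependent kinases that these cyclins bind (CDK2, CDK4 and CDK6) and a pair of pocket proteins (RB1 and RBL1). They were chosen by gene symbol, not by a measured value, though with earlier results of these data known. All 10 of them, out of 57820 gene identifiers in the deposited tables, had enough counts to be tested. They were measured by RNA sequencing in G401, an established human cell line from a malignant rhabdoid tumour, with the genotype SMARCB1(-/-). It thus lacks SMARCB1, one of the core proteins of the SWI/SNF complexes that remodel chromatin. Doxycycline induced either GFP, the control protein, or SMARCB1, and both kinds of cell received DMSO, the solvent, or dBRD9-A, a degrader of the SWI/SNF subunit BRD9, for 24 hours. This gave 4 groups of 3 libraries, one for each protein with each treatment. All groups thus shared the SMARCB1(-/-) background and the induction by doxycycline. Whether the induced cells were 1 clone and how long doxycycline was given are not stated in the sources used here.

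Passage from G1 into S phase is driven by cyclin-dependent kinases (CDKs). D-type cyclins activate CDK4 and CDK6, and E-type cyclins activate CDK2. The active kinases phosphorylate the pocket proteins RB1, RBL1 (p107) and RBL2 (p130), which otherwise hold E2F transcription factors back from genes of DNA synthesis. CCNE1, CCNE2 and RBL1 are themselves known E2F-controlled genes, and CDK inhibitors such as the products of CDKN2A and CDKN1A act against the kinases. In rhabdoid tumour cells, reintroduced SMARCB1 is known to slow the cell cycle in G1, and CCND1 and CDKN2A are among the genes linked to that effect.

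RBL1 and CCNE1 are shown by their promoters, because both are known E2F-controlled genes yet moved in opposite directions with SMARCB1. The sequences are those of RefSeq (GRCh38.p14), from 250 bases before to 50 bases after the annotated start site, read 5′ to 3′ on the gene's strand. Capitals mark E2F words in RBL1 (chr20:37095948-37096247, minus strand) and GC boxes in CCNE1 (chr19:29811741-29812040, plus strand).
RBL1: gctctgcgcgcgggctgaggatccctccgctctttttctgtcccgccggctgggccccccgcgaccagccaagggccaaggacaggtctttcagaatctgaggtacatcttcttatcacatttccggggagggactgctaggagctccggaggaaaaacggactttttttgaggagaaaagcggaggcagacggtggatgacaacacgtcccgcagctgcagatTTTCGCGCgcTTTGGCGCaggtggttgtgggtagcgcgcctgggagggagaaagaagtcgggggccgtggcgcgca
CCNE1: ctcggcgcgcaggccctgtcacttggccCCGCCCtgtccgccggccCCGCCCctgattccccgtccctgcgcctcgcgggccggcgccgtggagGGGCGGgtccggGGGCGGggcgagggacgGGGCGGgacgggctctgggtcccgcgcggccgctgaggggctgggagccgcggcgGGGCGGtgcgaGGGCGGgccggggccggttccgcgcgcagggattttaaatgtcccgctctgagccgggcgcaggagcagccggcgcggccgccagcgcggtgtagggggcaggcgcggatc
The E2F words searched, on both strands, were TTTCCCGC, TTTCGCGC, TTTGCCGC and TTTGGCGC, and the GC box was GGGCGG. RBL1 held TTTCGCGC and TTTGGCGC, which begin 26 and 16 bases before the start site, and 0 GC boxes. CCNE1 held 7 GC boxes and 0 of these E2F words. At least 1 E2F word was present in 3.31% and at least 1 GC box in 45.0% of the 35116 promoters in the table. Among 17 genes of DNA synthesis and G1/S passage with an entry, from a list of 20 described further on, 11 had an E2F word and 14 a GC box. A match describes the letters in this window and does not show that a factor binds there. The pair was picked for its opposite directions, and a link between such words and the direction of change was not tested. Entries were read for 6 of the 10 genes, and that of RB1 is at an internal start. No entry was found for CCND1, CCND2 and CDK2. The chromosome of CCNE2 was left out when the entries of the 10 genes were read, so its promoter was not examined.

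Levels are given as counts per 1e6 gene counts on TMM-scaled library sizes (CPM), and a ± is the standard deviation (SD) over 3 libraries. Libraries held 34.97 to 58.54 megacounts (1e6 counts) of genes, and replicates of a group had rank correlations of 0.9967 to 0.9983. SMARCB1 itself was at 0 to 2 counts in each GFP library. In SMARCB1 cells it was at 1806 to 1911 CPM in DMSO and lower, at 1276 to 1327 CPM, with dBRD9-A, so these groups differed in the induced gene as well as in the degrader. Filament genes were abundant in every library and differed with SMARCB1 in DMSO: VIM was at 1287 to 1337 CPM in GFP and 2237 to 2356 CPM in SMARCB1 cells, KRT18 at 2439 to 2673 and 1664 to 1709 CPM, and KRT8 at 2256 to 2405 and 1872 to 1927 CPM. EPCAM, an epithelial surface gene, had 27 to 44 counts in GFP and 0 to 2 in SMARCB1 libraries in DMSO, and PTPRC (leukocytes) and MYOD1 (muscle) had 0 counts throughout. The part of these differences in the results was not tested. The labels number the replicates without saying that they were separate cultures, so p-values measure the spread between these libraries, which may be technical. Changes are log2 fold changes from edgeR's quasi-likelihood test over 15750 genes, with standard errors (SE), and a gene is said to rise or fall where the Benjamini-Hochberg adjusted p is under 0.05.

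**Figure D1:**
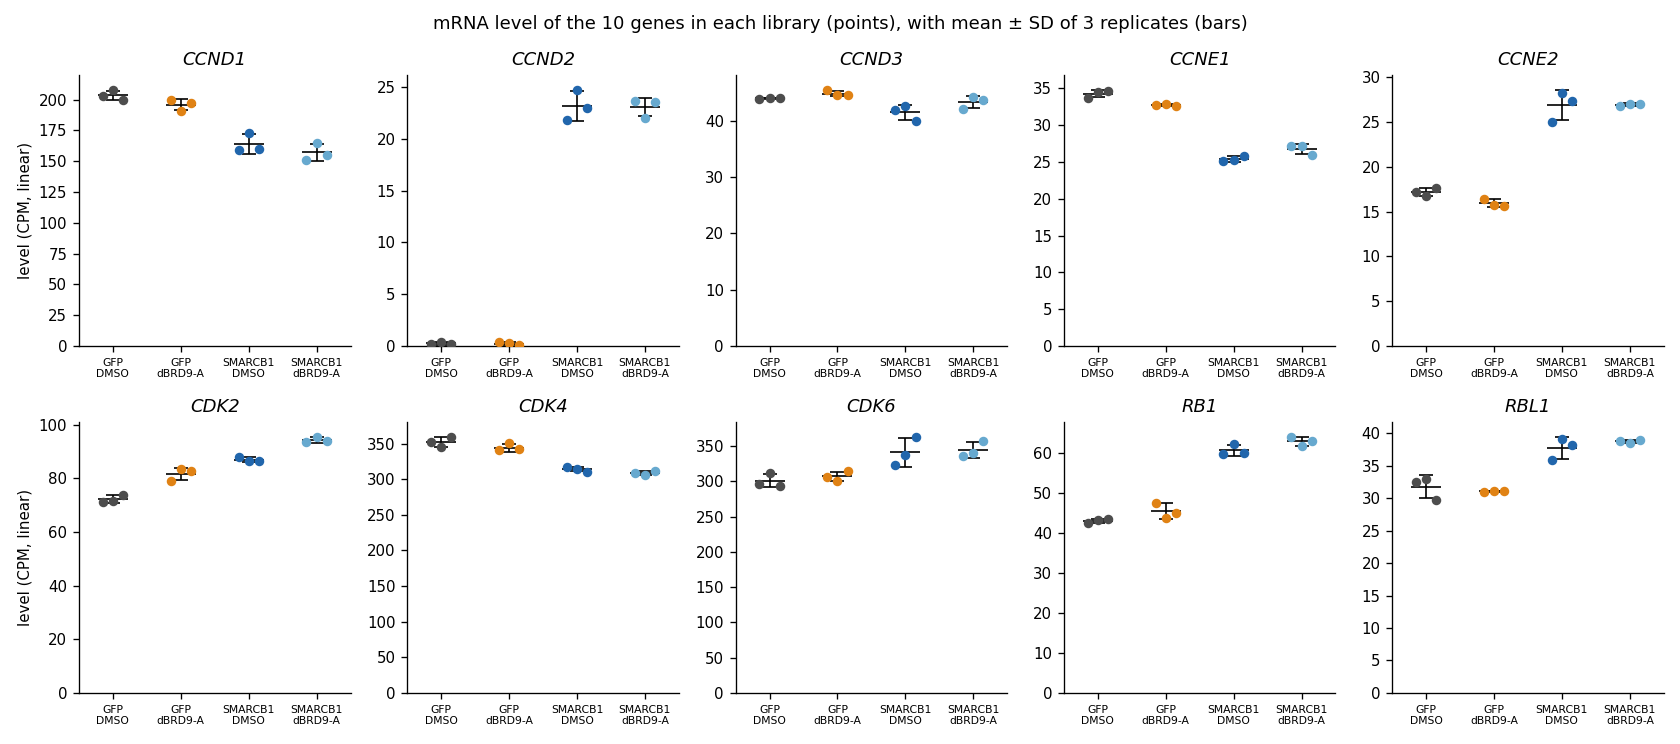
Level of each of the 10 genes (vertical axis, CPM, linear, from 0) in the 4 groups (horizontal axis). Points are libraries and bars the mean ± SD of 3; CCND2 is near 0 in the GFP groups, and for each of the 10 genes the SMARCB1 and GFP libraries in DMSO do not overlap.

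Per length, CDK4 was the most abundant of the 10 mRNAs. In GFP cells in DMSO, CPM per kilobase of exon (GENCODE 29) was 111 ± 2.15 for CDK4, 42.2 ± 0.786 for CCND1, 24.5 ± 0.794 for CDK6, 18.5 ± 0.356 for CDK2 and 13.4 ± 0.191 for CCNE1 (SD, n = 3). The next in order were CCND3 at 7.58, RB1 at 6.68, RBL1 at 5.34 and CCNE2 at 3.91 CPM per kilobase. CCND2 came last at 0.0348 CPM per kilobase. With the longest transcript as the length, a choice added after the data were seen, CDK2 (27.8) passed CDK6 (25.9) and CCND3 (18.4) passed CCNE1 (16.8), so these neighbours have no firm order. In SMARCB1 cells in DMSO the level of CCND2 was 3.24 ± 0.205 CPM per kilobase (SD, n = 3), below that of RBL1 at 6.34 and of CCNE2 at 6.11.

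Restoring SMARCB1 in DMSO changed all 10 genes, 6 upwards and 4 downwards. The background was high, since 65% of all tested genes passed the same threshold, 33.5% upwards and 31.6% downwards. Replicates did not overlap between the 2 groups for 10 of the 10 genes, against 68.7% of all tested genes. The median log2 fold change was 0.22 over the 10 genes and -0.0047 over all genes, and the median absolute values were 0.29 and 0.28. Scaling the libraries to the added ERCC spike-in RNAs moved the median of all genes to 0.17 and gave 6 higher and 1 lower of the 10. Of all 15750 tested genes, 6831 were higher and 2581 lower under that scaling. Rises and falls are therefore stated against the other genes of a library unless a scaling is named.

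**Figure D2:**
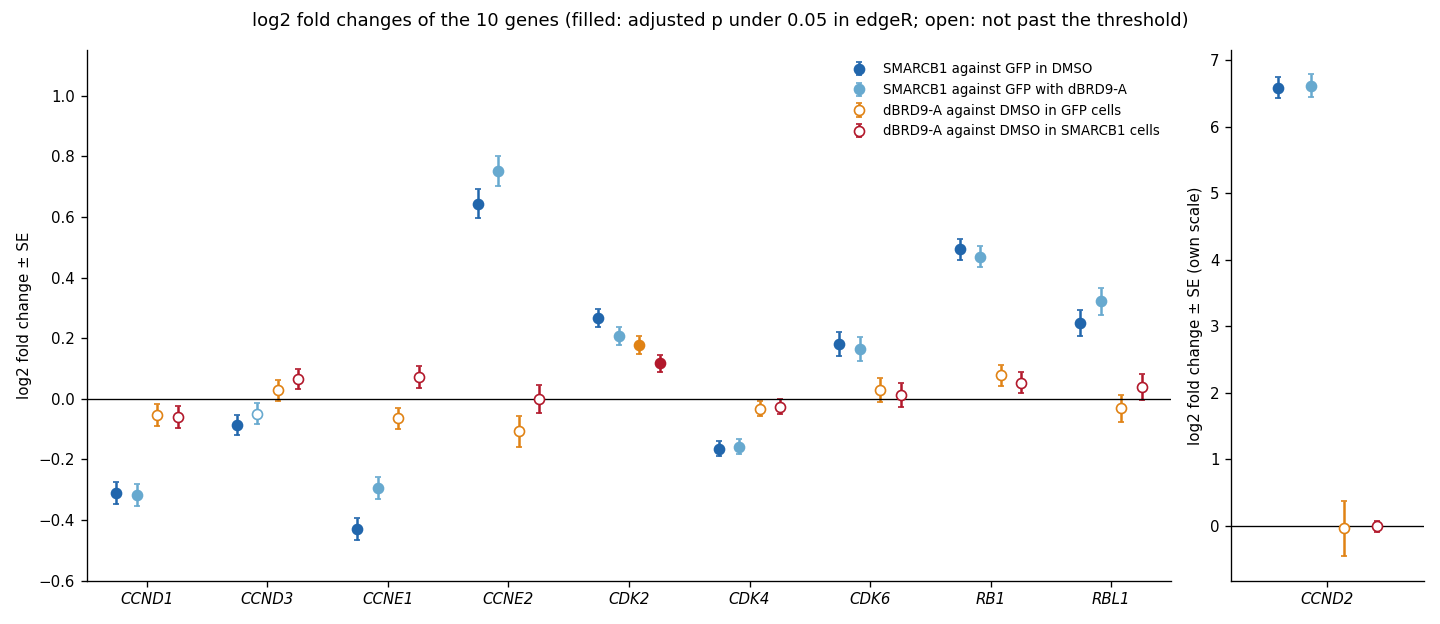
log2 fold change ± SE (vertical axis) of each gene (horizontal axis) in the 4 comparisons, with CCND2 on its own scale at the right. Filled symbols passed an adjusted p of 0.05; with SMARCB1, 9 genes lie between -0.43 (CCNE1 in DMSO) and 0.75 (CCNE2 with dBRD9-A) and CCND2 at 6.59 and 6.62, whereas CDK2 is the only gene filled with dBRD9-A.

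CCND2 rose the most of the D-type cyclins, from a level close to the floor of detection. The GFP libraries in DMSO had 0.178, 0.363 and 0.207 CPM, which is 10 to 15 counts each. The SMARCB1 libraries in DMSO had 21.8, 24.7 and 23.0 CPM, or 832 to 1338 counts. Every SMARCB1 library was thus far above every GFP library, with a log2 difference of 6.59 (SE 0.16 and adjusted p 1.65e-16), a 96.1-fold difference. With dBRD9-A the GFP libraries had 0.351, 0.263 and 0.0565 CPM and the SMARCB1 libraries 23.6, 22.1 and 23.5 CPM. The last of these GFP libraries held 2 counts, under the floor of 3 counts taken as the limit of detection, which covers counting error only. The log2 fold change with dBRD9-A was 6.62 (SE 0.17 and adjusted p 5.4e-16), from libraries that do not occur in the DMSO comparison. Under spike-in scaling the log2 values were 6.75 and 6.30. CCND2 overlaps CCND2-AS1 on the opposite strand and AC008012.1 on the same strand in GENCODE 29, and whether reads were counted by strand is not given in the sources used here, so a share of its counts could belong to either.

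CCND1, the most abundant D-type cyclin mRNA in each group per length, fell with SMARCB1. Its levels in DMSO were 203, 208 and 200.1 CPM in GFP cells and 159, 173 and 160.0 CPM in SMARCB1 cells. With dBRD9-A they were 199, 191 and 197 CPM in GFP cells and 151, 165 and 155 CPM in SMARCB1 cells. The lowest GFP library, at 191 CPM, lay above the highest SMARCB1 library, at 173 CPM. The log2 fold change was -0.31 (SE 0.04 and adjusted p 8.05e-07) in DMSO and -0.32 (SE 0.04 and adjusted p 7.58e-07) with dBRD9-A. Spike-in scaling gave -0.15 (adjusted p 0.0502) and -0.65 (adjusted p 2.45e-11), around medians of all genes of 0.17 and -0.32. The order of the group means ran from GFP cells in DMSO (204 ± 3.80) through GFP cells with dBRD9-A (196 ± 4.37) and SMARCB1 cells in DMSO (164 ± 7.93) to SMARCB1 cells with dBRD9-A (157 ± 7.11 CPM, SD, n = 3). Neighbours of the same cell state in this order did not differ past the threshold.

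CCND3, the remaining D-type cyclin, differed little. It was between 43.9 and 44.1 CPM in GFP cells and between 40.0 and 42.6 CPM in SMARCB1 cells in DMSO. With dBRD9-A the ranges were 44.5 to 45.5 CPM and 42.1 to 44.3 CPM. The cell states were separate in both treatments, but by a narrow margin. The fall of 0.09 on the log2 scale in DMSO (SE 0.03 and adjusted p 0.0343) became a value of 0.08 under spike-in scaling, and was lost with DESeq2 (adjusted p 0.0806), with no filter on low counts (adjusted p 0.0652) and without any of the 3 GFP DMSO libraries or SMARCB1 DMSO replicate 3 (adjusted p up to 0.186). With dBRD9-A the value was -0.05 (95% interval -0.12 to 0.02, adjusted p 0.231).

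The makeup of the D-type cyclin mRNAs thus differed between the cell states. The ratio of CCND1 to CCND2 counts was 571 to 1143 in GFP cells in DMSO and 6.95 to 7.30 in SMARCB1 cells in DMSO. CCND2 reached 0.558 ± 0.0331 of the count of CCND3 in SMARCB1 cells, from 0.00566 ± 0.00226 in GFP cells (DMSO, SD, n = 3). CCND1 to CCND3 went from 4.63 ± 0.0804 to 3.95 ± 0.138 (SD, n = 3). Such ratios within a library do not depend on how libraries are scaled, and they compare counts, not molecules, since the genes differ in length.

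The E-type cyclins moved in opposite directions. CCNE1 was at 33.7, 34.4 and 34.6 CPM in GFP cells in DMSO and at 25.1, 25.2 and 25.8 CPM in SMARCB1 cells in DMSO. CCNE2 was at 17.2, 16.8 and 17.7 CPM in the same GFP libraries and at 25.0, 28.3 and 27.3 CPM in the same SMARCB1 libraries. Replicates of each gene lay close together and the cell states did not overlap. CCNE1 fell by 0.43 on the log2 scale (SE 0.04 and adjusted p 8.15e-09) and CCNE2 rose by 0.64 (SE 0.05 and adjusted p 1.46e-09). Both directions held under spike-in scaling, at -0.26 (adjusted p 0.00213) and 0.81 (adjusted p 2.17e-12).

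The same pair of directions was measured in the libraries with dBRD9-A. CCNE1 was at 32.6 to 32.9 CPM in GFP cells and 26.0 to 27.1 CPM in SMARCB1 cells, a fall of 0.29 on the log2 scale (SE 0.04 and adjusted p 1.58e-06). CCNE2 was at 15.7 to 16.4 CPM in GFP cells and 26.7 to 27.0 CPM in SMARCB1 cells, a rise of 0.75 (SE 0.05 and adjusted p 3.24e-10). Spike-in scaling gave -0.62 and 0.43. The ratio of CCNE1 to CCNE2 counts was 1.99 ± 0.0524 in GFP cells and 0.946 ± 0.0555 in SMARCB1 cells in DMSO, and 2.05 ± 0.0546 and 0.993 ± 0.0282 with dBRD9-A (SD, n = 3). CCNE1 overlaps no other gene in GENCODE 29, while CCNE2 overlaps INTS8 and NDUFAF6, among others, on the opposite strand.

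**Figure D3:**
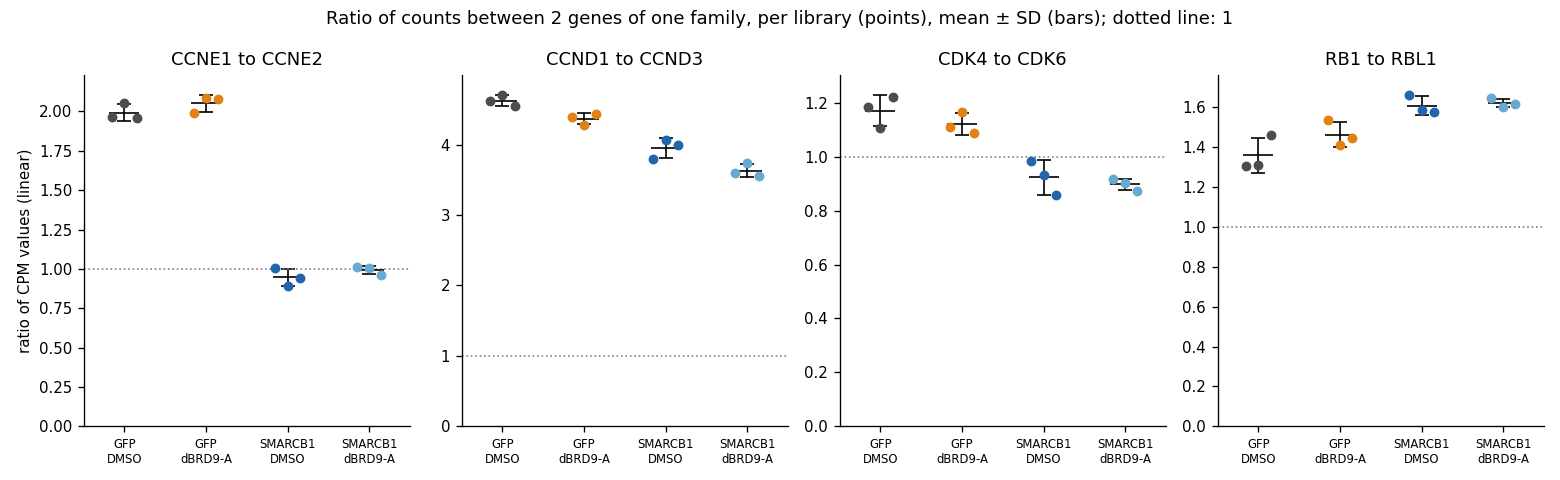
Ratio of counts of 2 genes of a family (vertical axis, linear, from 0) in each library (points), with mean ± SD of 3 (bars), by group. The CCNE1 to CCNE2 ratio is near 2 in the GFP groups and near 1 in the SMARCB1 groups, and the CDK4 to CDK6 ratio lies above 1 in the GFP libraries and below 1 in the SMARCB1 libraries.

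Among the kinases, CDK4 fell slightly while CDK6 and CDK2 rose. CDK4, a partner of the D-type cyclins, was at 352, 346 and 359 CPM in GFP cells and at 318, 314 and 311 CPM in SMARCB1 cells in DMSO. CDK6, the other partner of these cyclins, was at 297, 312 and 294 CPM in GFP cells and at 323, 337 and 363 CPM in SMARCB1 cells. The CDK6 libraries of SMARCB1 cells were the most spread of any kinase, but none reached down to the GFP libraries. The log2 fold change of CDK4 was -0.17 (SE 0.03 and adjusted p 1.6e-05), which spike-in scaling turned to 0.0030 (adjusted p 0.973), and that of CDK6 was 0.18 (SE 0.04 and adjusted p 0.000513), or 0.35 under spike-in scaling. The count ratio of CDK4 to CDK6 was 1.17 ± 0.0588 in GFP cells and 0.924 ± 0.0638 in SMARCB1 cells (DMSO, SD, n = 3), a difference that no scaling changes.

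With dBRD9-A the 2 D-cyclin kinases differed by cell state in like manner. CDK4 had 340 to 351 CPM in GFP cells and 306 to 312 CPM in SMARCB1 cells, a log2 fold change of -0.16 (SE 0.03 and adjusted p 2.98e-05). CDK6 had 301 to 314 CPM in GFP cells and 336 to 357 CPM in SMARCB1 cells, a log2 fold change of 0.16 (SE 0.04 and adjusted p 0.00127) that spike-in scaling turned to -0.16 (adjusted p 0.0361). That value still lay above the median of all genes under spike-in scaling, -0.32. CDK4 overlaps TSPAN31 and MARCH9 on the opposite strand, and CDK6 overlaps AC002454.1 on the opposite strand.

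CDK2, the partner of the E-type cyclins, was the 1 gene of the 10 that rose with SMARCB1 and with dBRD9-A. Its levels in DMSO were 71.3, 71.4 and 73.8 CPM in GFP cells and 88.1, 86.3 and 86.2 CPM in SMARCB1 cells. With dBRD9-A they were 79.1, 83.3 and 82.6 CPM in GFP cells and 93.5, 95.4 and 93.8 CPM in SMARCB1 cells. No 2 of the 4 groups overlapped, and the order of their means was GFP cells in DMSO, GFP cells with degrader, SMARCB1 cells in DMSO and SMARCB1 cells with degrader. On the log2 scale SMARCB1 raised CDK2 by 0.27 in DMSO (SE 0.03 and adjusted p 2.36e-07) and by 0.21 with dBRD9-A (SE 0.03 and adjusted p 6e-06). Spike-in scaling gave 0.44 and -0.12 (adjusted p 0.0955), so the direction with dBRD9-A depended on the scaling. CDK2 overlaps PMEL on the opposite strand.

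Both pocket protein genes rose with SMARCB1. RB1, the retinoblastoma protein gene, was at 42.6, 43.2 and 43.5 CPM in GFP cells and at 59.7, 62.2 and 60.1 CPM in SMARCB1 cells in DMSO. With dBRD9-A it was at 47.6, 43.8 and 44.9 CPM in GFP cells and at 64.0, 61.8 and 63.1 CPM in SMARCB1 cells. In each treatment the lowest SMARCB1 library lay well above the highest GFP library. The log2 rise was 0.49 in DMSO (SE 0.03 and adjusted p 7.27e-10) and 0.47 with dBRD9-A (SE 0.03 and adjusted p 1.95e-09), and spike-in scaling gave 0.66 and 0.14 (adjusted p 0.0634). RB1 spans several genes in its introns in GENCODE 29, LPAR6 on the opposite strand among them.

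RBL1, whose promoter with 2 E2F words is printed above, was at 32.5, 33.0 and 29.8 CPM in GFP cells and at 35.9, 39.2 and 38.2 CPM in SMARCB1 cells in DMSO. With dBRD9-A it was at 31.0 to 31.1 CPM in GFP cells and at 38.6 to 39.0 CPM in SMARCB1 cells. Its libraries in DMSO were more spread than those with dBRD9-A, and the cell states stayed apart. RBL1 rose by 0.25 (SE 0.04 and adjusted p 5.97e-05) in DMSO and by 0.32 (SE 0.04 and adjusted p 5.08e-06) with dBRD9-A, and the latter value was -0.0053 (adjusted p 0.953) under spike-in scaling. The count ratio of RB1 to RBL1 was 1.36 ± 0.0886 in GFP cells and 1.61 ± 0.0485 in SMARCB1 cells in DMSO (SD, n = 3). In RNA of whole cultures, less RNA per cell and fewer cells in the phase that makes it cannot be told apart for any of these genes.

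Across all genes with dBRD9-A, 63.3% passed the threshold between SMARCB1 and GFP cells, 33% higher and 30.4% lower. Of the 10 genes 9 did so, 6 higher and 3 lower, and CCND3 did not. Replicates did not overlap for 10 of the 10 genes, against 66.2% of all genes. The median absolute log2 fold change was 0.31 for the 10 genes and 0.27 for all genes. Under spike-in scaling 2 of the 10, CCND2 and CCNE2, were higher and 5 lower. Of all 15750 tested genes, 2129 were then higher and 9046 lower.

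**Figure D4:**
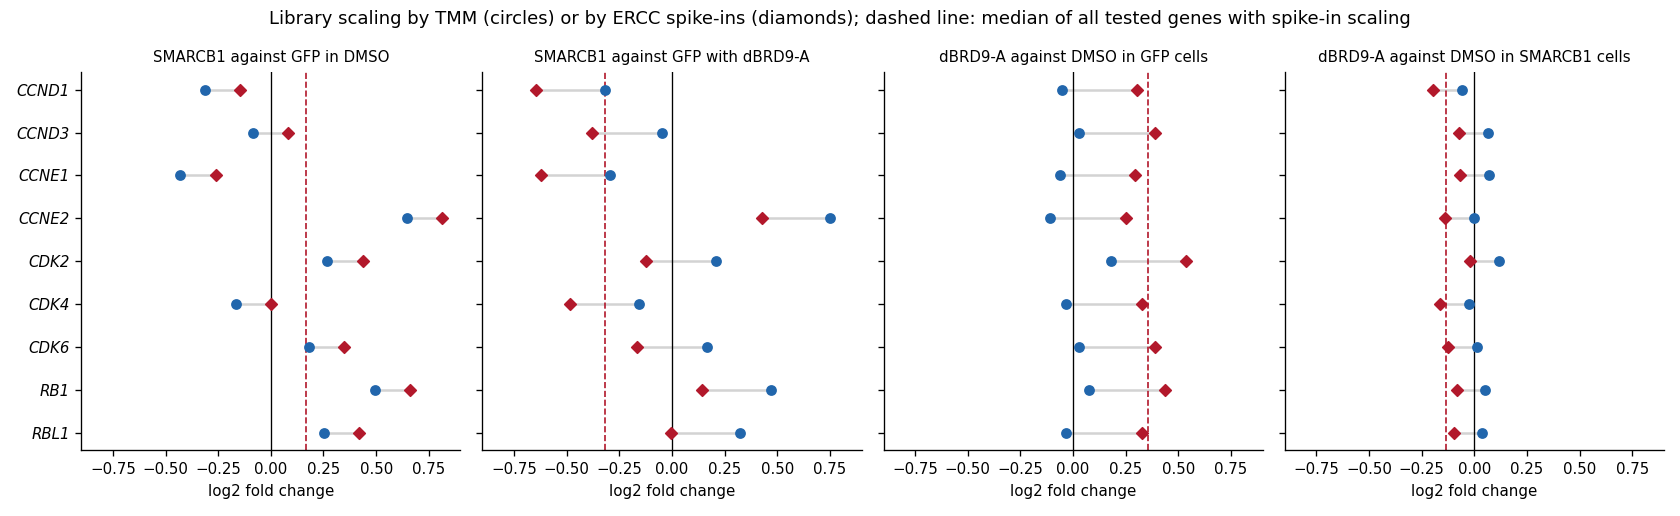
log2 fold change (horizontal axis) of 9 genes (vertical axis; CCND2 lies off this scale) with libraries scaled by TMM (circles) or by ERCC spike-ins (diamonds) in 4 comparisons, with the median of all tested genes under spike-in scaling as a dashed line. The median of all genes under spike-in scaling is 0.17, -0.32, 0.36 and -0.14, and the 9 genes move with it, so that the side of 0 changes for some.

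The degrader alone left most of these genes near their level in DMSO. In GFP cells 1 of the 10, CDK2, passed the threshold with dBRD9-A, upwards, against 15.9% of all genes (7.43% upwards and 8.47% downwards). Replicates did not overlap for 6 of the 10, against 34% of all genes. CDK2 rose by 0.18 on the log2 scale (SE 0.03 and adjusted p 0.000337), which was 0.54 under spike-in scaling, and kept an adjusted p of at most 0.0035 whichever library was left out. The other 9 genes had log2 fold changes of -0.11 (CCNE2, 95% interval -0.21 to -0.0012, adjusted p 0.174) to 0.08 (RB1, 95% interval 0.0028 to 0.15, adjusted p 0.162). The interval of CCND2, -0.92 to 0.85, was wide because of its 2 to 15 counts per library, and a change of that size was not detectable at this depth. The median absolute log2 fold change was 0.05 for the 10 genes and 0.09 for all genes. Spike-in scaling moved all genes up by a median of 0.36, and 9 of the 10, all but CCND2, were then called higher. So were 11083 of all 15750 tested genes, while 227 were called lower.

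In SMARCB1 cells CDK2 was again the 1 gene past the threshold with dBRD9-A, upwards, against 1.93% of all genes (0.679% upwards and 1.25% downwards). Replicates did not overlap for 2 of the 10, CDK2 and CCNE1, against 16.9% of all genes. The rise of CDK2 was 0.12 (SE 0.03 and adjusted p 0.0415) and was not firm. It was lost in 11 of 12 fits that left out a library, with adjusted p up to 0.178, and when the 6 SMARCB1 libraries were fitted by themselves (adjusted p 0.118), and was -0.0197 under spike-in scaling. CCNE1 had 25.1 to 25.8 CPM in DMSO and 26.0 to 27.1 CPM with dBRD9-A, a log2 fold change of 0.07 (95% interval -0.0052 to 0.15, adjusted p 0.44). CCNE2 had 25.0 to 28.3 CPM and 26.7 to 27.0 CPM, a log2 fold change of 1e-04 (95% interval -0.10 to 0.10, adjusted p 1).

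Whether SMARCB1 altered the response to dBRD9-A was tested by the interaction, the response in SMARCB1 cells minus that in GFP cells. None of the 10 genes passed in edgeR's quasi-likelihood test, a count of 0 against 3.8% of all genes. The count was also 0 with DESeq2's Wald test, and 1 gene, CCNE1, had an unadjusted p under 0.05. CCNE1 had the largest interaction, 0.14 (SE 0.05, 95% interval 0.03 to 0.24, adjusted p 0.179), and its pairwise differences did not overlap between the cell states, as for 9.25% of all genes. CDK2 had an interaction of -0.06 (95% interval -0.15 to 0.03, adjusted p 0.515), so its rises of 0.18 and 0.12 were not shown to differ. Spike-in scaling moved the median interaction of all genes to -0.49 and called 9 of the 10 negative. Of all 15750 tested genes, it called 11204 negative and 66 positive. SMARCB1 mRNA itself was lower with dBRD9-A in SMARCB1 cells, as given above, and its part in the interaction was not tested. The comparisons of dBRD9-A against DMSO and the interaction share DMSO libraries with the comparison of SMARCB1 against GFP cells in DMSO.

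Regulators and targets of the same pathway were read from lists fixed by name. Under spike-in scaling, SMARCB1 in DMSO had 6831 of all 15750 genes higher and 2581 lower, the background for list counts under that scaling. All 7 CDK inhibitor genes changed with SMARCB1 in DMSO, 5 higher and 2 lower, where 65% of all genes were called (5 higher and 1 lower under spike-in scaling). CDKN2B (p15) rose from 0.267 ± 0.0516 to 2.22 ± 0.219 CPM (SD, n = 3), by 3.07 on the log2 scale (SE 0.19 and adjusted p 1.31e-10). CDKN1C (p57) rose by 2.17 (SE 0.17 and adjusted p 2.5e-09), and CDKN1A (p21) fell from 144 ± 3.78 to 86.7 ± 2.94 CPM (SD, n = 3), by 0.73 (SE 0.04 and adjusted p 4.44e-11). CDKN1B (p27) fell by 0.15 (adjusted p 0.0021), a value of 0.02 under spike-in scaling. CDKN2A, named in the background above, rose from 0.898 ± 0.167 to 2.64 ± 0.279 CPM (SD, n = 3). Its log2 rise was 1.54 (SE 0.18 and adjusted p 5.12e-07), or 1.71 under spike-in scaling.

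Of 11 E2F factors, their partners and RBL2, 2 were higher and 5 lower with SMARCB1 in DMSO, that is, 7 of 11 beside 65% of all genes, with a median of -0.08 against -0.0047 for all genes. E2F1, an activator, rose by 0.32 (SE 0.06 and adjusted p 5.99e-05) and E2F7, a repressor, by 0.38 (SE 0.07 and adjusted p 0.000188). E2F2, another activator, fell from 47.6 ± 0.812 to 29.8 ± 1.19 CPM (SD, n = 3) and E2F5, a partner of pocket proteins in repression, from 103 ± 1.79 to 72.0 ± 0.878 CPM (SD, n = 3). Under spike-in scaling 3 were higher and 2 lower, and E2F2 and E2F5 were the 2 lower ones.

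The list of genes of DNA synthesis and G1/S passage under E2F control includes helicase subunits such as MCM2 and MCM6, the loading factors CDC6, CDT1 and ORC1, and PCNA, the sliding clamp of the polymerases. Of its 20 genes, 8 were higher and 4 lower with SMARCB1 in DMSO, 12 in all, beside 65% of all genes. Their median was 0.03, against -0.0047 for all genes. TK1, thymidine kinase, rose from 74.6 ± 1.69 to 109 ± 5.02 CPM and MCM6, a subunit of the replicative helicase, from 213 ± 8.26 to 262 ± 9.63 CPM (SD, n = 3). CDC25A, a phosphatase that activates CDK2, and MCM7, another helicase subunit, had log2 fold changes of -0.15 and -0.14, both past the threshold, which spike-in scaling turned to 0.02 and 0.03. With that scaling 13 of the 20 were higher and 0 lower, beside 6831 higher and 2581 lower of all 15750 genes.

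Among 8 genes that activate or restrain CDKs, 4 were higher and 2 lower, beside 65% of all genes called (4 and 0 under spike-in scaling). CDK7, the kinase of the CDK-activating complex, rose by 0.42 (SE 0.03 and adjusted p 1.73e-09) and CDC25C, a phosphatase of mitotic entry, by 0.54 (SE 0.05 and adjusted p 1.83e-08). CDC25B, a related phosphatase, fell by 0.17 (adjusted p 0.000614), which was -0.0039 under spike-in scaling. Of 6 genes of MuvB, the core that joins pocket proteins in the DREAM repressor complex, and its partner MYBL2, 2 were higher and 1 lower (with spike-in scaling, 4 and 1). The share called over all genes was 65%. MYBL2, which joins MuvB in cycling cells, rose from 117 ± 0.229 to 163 ± 1.45 CPM (SD, n = 3), LIN37 rose by 0.43 (SE 0.09 and adjusted p 0.000486) and RBBP4, a histone-binding subunit, fell from 375 ± 9.36 to 280 ± 8.08 CPM (SD, n = 3).

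Of 10 genes that turn over G1 cyclins or their inhibitors, 4 were higher and 3 lower with SMARCB1 in DMSO, near the 65% called over all genes, and 6 were higher and 1 lower under spike-in scaling. FBXW7, the receptor subunit of the ubiquitin ligase for cyclin E, rose by 0.41 (SE 0.04 and adjusted p 5.15e-08) and GSK3B, a kinase that marks cyclins D and E for turnover, by 0.33 (SE 0.03 and adjusted p 6e-08). AMBRA1, the receptor subunit of the ligase for D-type cyclins, fell by 0.40 (SE 0.03 and adjusted p 1.83e-09) and FBXO4 fell by 0.31 (SE 0.08 and adjusted p 0.0028), which was -0.14 (adjusted p 0.269) under spike-in scaling. Of 5 later cyclins and CDK1, 3 were higher and 0 lower (with spike-in scaling, 4 and 0), beside 33.5% of all genes higher and 31.6% lower. CCNF rose by 0.42 (SE 0.03 and adjusted p 9.24e-11) and CCNB2 also by 0.42 (SE 0.03 and adjusted p 1.53e-10). CDC25A and CCNA2 stand on 2 of these lists each.

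**Figure D5:**
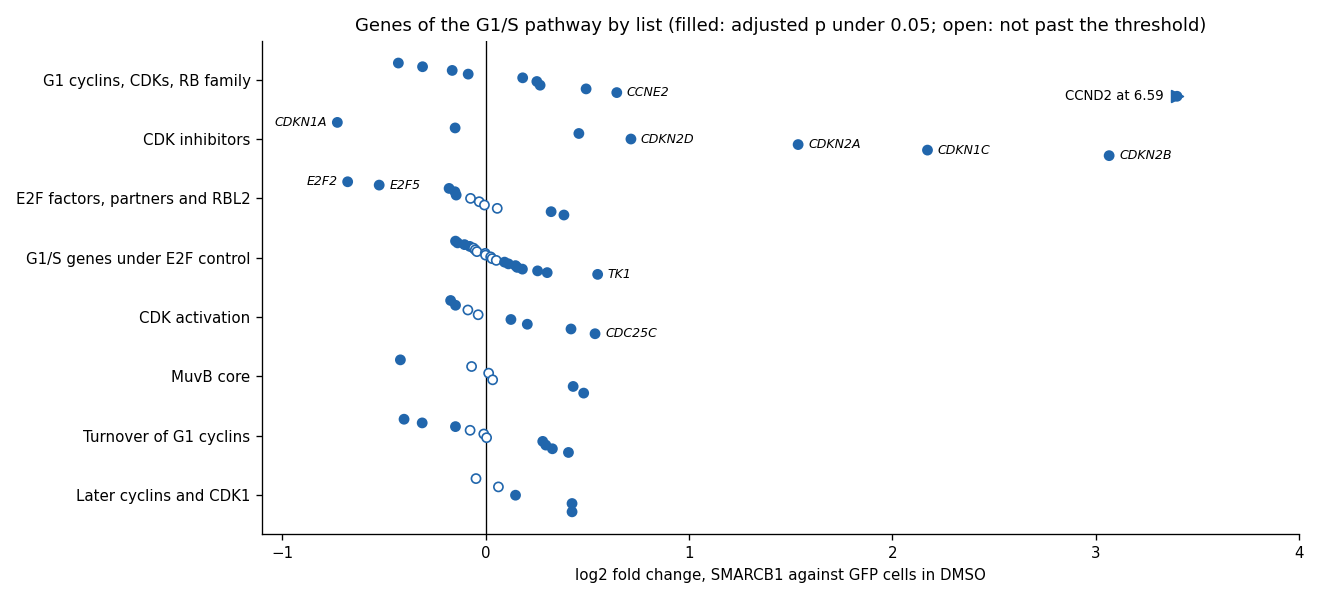
log2 fold change of SMARCB1 against GFP cells in DMSO (horizontal axis) for the 10 genes and 7 lists of the pathway (rows); each point is a gene, filled where the adjusted p was under 0.05. CCND2, at 6.59, is drawn at the right edge; the CDK inhibitors span -0.73 to 3.07, and the other 6 lists lie between -0.68 (E2F2) and 0.55 (TK1).

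With dBRD9-A in GFP cells, CDKN2C (p18), an inhibitor of CDK4 and CDK6, was the 1 of 7 CDK inhibitor genes that changed. The share called over all genes was 15.9%. Under spike-in scaling 6 of the 7 were higher, beside 11083 of all 15750 genes. CDKN2C rose from 35.6 ± 2.16 to 61.1 ± 3.33 CPM (SD, n = 3), by 0.78 on the log2 scale (SE 0.05 and adjusted p 1.1e-08), while in SMARCB1 cells it was 49.0 ± 1.65 CPM in DMSO and 50.5 ± 2.97 CPM with the degrader (SD, n = 3). E2F2 fell in both cell states, by 0.21 (SE 0.04 and adjusted p 0.000847) and by 0.20 (SE 0.04 and adjusted p 0.0166), of which the first was 0.14 and the second -0.33 under spike-in scaling. The second call was lost without SMARCB1 DMSO replicate 2, and when the 6 SMARCB1 libraries were fitted by themselves (adjusted p 0.0775). CDC25B fell by 0.23 (SE 0.04 and adjusted p 0.000416) in GFP cells, which was 0.13 under spike-in scaling.

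The remaining calls of the lists with dBRD9-A in GFP cells were small. E2F4, E2F6, FBXW7, MYBL2 and CCNF rose by 0.09 to 0.13, and RBL2, ORC1, RRM2, CDK7 and SKP2 had log2 fold changes of -0.12 to -0.08 that spike-in scaling turned to 0.24 to 0.27. Each of these 10 calls was lost in 2 to 6 fits when the 12 libraries were left out in turn, and E2F6 (adjusted p 0.0613), RBL2 (0.0561) and CDK7 (0.0557) were also lost with DESeq2. Beside 15.9% of all genes called, 2 of 11 E2F genes and partners were higher and 2 lower, and 2 of 20 genes under E2F control were lower. CDK activators had 0 higher and 2 lower of 8, MuvB genes 1 higher of 6, turnover genes 1 higher and 1 lower of 10, and later cyclins 1 higher of 5. Under spike-in scaling, with its median of all genes at 0.36, these lists had 0 genes lower. The higher ones were, in the same order, 10 of 11, 20 of 20, 7 of 8, 5 of 6, 9 of 10 and 5 of 5. Of all 15750 genes, 11083 were higher and 227 lower under that scaling. In SMARCB1 cells E2F2 was the 1 gene of all lists past the threshold, against 1.93% of all genes.

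With dBRD9-A present, SMARCB1 against GFP cells gave 4 higher and 3 lower of the 7 CDK inhibitors, since CDKN2C was then lower by 0.28 (adjusted p 0.000124). The E2F list had 2 higher and 6 lower of 11, and the genes under E2F control 8 higher and 2 lower of 20, beside 63.3% of all genes called. Spike-in scaling turned these counts to 0 higher and 10 lower, and to 0 higher and 17 lower. It left the CDK inhibitors at 4 higher and 3 lower. Over all 15750 genes, that scaling gave 2129 higher and 9046 lower. CDK7 rose by 0.48 (SE 0.03 and adjusted p 4.53e-10) and MYBL2 by 0.35 (SE 0.03 and adjusted p 8.98e-09). Spike-in scaling gave 0.15 and 0.02 for them.

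The genes most like CCND2 and CCNE2, the 2 genes with the widest range of group means, were sought by Pearson correlation of log2 CPM over the 12 libraries among 12584 genes with a mean of at least 50 counts. For CCND2 they were PITRM1, S100A10 and SPART (r of 0.998, 0.997 and 0.997), and for CCNE2 GPC4, TMEM185B and STK4 (r of 0.997, 0.996 and 0.995). The libraries fall into the SMARCB1 and GFP cell states and are not independent points, and 78 and 76 genes had an r over 0.99 with CCND2 and with CCNE2.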

How the data were processed

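RNA sequencing libraries of 12 samples of G401 cells (4 groups of 3) were read from 3 deposited tables, in which libraries that recur had identical values. The values are expected counts per gene, which the authors deposited without normalization. Per the submitters' processing notes, STAR, RSEM 1.3.1 and DESeq2 were used with GRCh37/hg19. Per the labels' protocols, the RNA kit was Qiagen RNeasy Plus and the library kit TruSeq Stranded mRNA. Whether reads were counted by strand and how spike-ins were added are not given in the sources used here.

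Expected counts were rounded. Symbols matched 51996 of 57820 identifiers. The 40 ERCC spike-ins were kept out of library sizes (0.963% to 1.30% of counts). Genes passing filterByExpr (minimum count 10) were tested in R 4.3.3 with edgeR 4.0.16 (TMM, quasi-likelihood, 1 coefficient per group, 12 libraries), with Benjamini-Hochberg adjustment over 15750 genes and a threshold of 0.05. SEs came from the quasi-F statistic. Replicates differed by more than sampling noise (chi-square per degree of freedom 2.89 to 23.8). Libraries held 34.97 to 58.54 megacounts (1e6 counts) of genes, so the floor of 3 counts was 0.0516 to 0.0847 CPM. Lengths and overlaps came from GENCODE 29 and promoters from RefSeq GRCh38.p14, by gene name only, since the counts were made on GRCh37. The code was tested on simulated data.

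The 10 genes and the lists were chosen with earlier results of these data known. All 10 are named, and of each list, per comparison, up to 2 rises and 2 falls that passed the threshold, averaged 50 counts or more and had replicates that did not overlap. CDKN2A in DMSO is given outside this rule, because the background names it. Alternatives were DESeq2 1.42.0's Wald test and size factors, spike-in scaling, no filter or a minimum count of 50, a replicate block, only the groups compared and each library left out.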

Additional observations from a re-analysis of the deposited data

Results flagged for a closer look

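The response of CDKN2C to dBRD9-A differed between the cell states, with an interaction of -0.73 on the log2 scale (SE 0.07 and adjusted p 8e-06 in edgeR's quasi-likelihood test), and -1.23 under spike-in scaling. That of CDC25B differed by 0.22 (SE 0.05 and adjusted p 0.0328), a value that spike-in scaling turned to -0.28 and whose call was lost in 9 of 12 fits that left out a library. Groups of 3 were not searched for single outlying libraries.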

How the results depend on the processing

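The scaling was the choice that moved most values. Against TMM, spike-in scaling gave 11310 genes and 9 of the 10 for dBRD9-A in GFP cells, 873 genes and 0 of the 10 for dBRD9-A in SMARCB1 cells, and 11270 genes and 9 of the 10 for the interaction. Among the 10 genes, the log2 values that changed sign with it and passed the threshold under at least 1 of the scalings were, in DMSO, 0.0822 (CCND3) and 0.0030 (CDK4), and, for SMARCB1 with dBRD9-A, -0.12 (CDK2), -0.16 (CDK6) and -0.0053 (RBL1). For dBRD9-A in GFP cells they were 0.30 (CCND1), 0.29 (CCNE1), 0.25 (CCNE2), 0.33 (CDK4) and 0.325 (RBL1), and in SMARCB1 cells -0.0197 (CDK2). For the interaction they were -0.46 (CCND3), -0.36 (CCNE1), -0.39 (CCNE2), -0.49 (CDK4) and -0.42 (RBL1). List genes were read in the comparisons for which the rule above picked them. Of these, CDKN1B (0.0202), CDC25A (0.0189) and MCM7 (0.0288) turned in DMSO. For SMARCB1 with dBRD9-A, E2F7 (-0.0434), CDC45 (-0.0201), GSK3B (-0.0112) and SKP2 (-0.0142) turned, whose calls in that comparison are not described above. For dBRD9-A in GFP cells E2F2 (0.14), RBL2 (0.24), ORC1 (0.24), RRM2 (0.25), CDC25B (0.13), CDK7 (0.25) and SKP2 (0.27) turned, and CDC25B (-0.28) for the interaction. Other list genes turned too, among them E2F4 (0.0225), E2F6 (0.0168), CUL1 (0.0188), ORC1 (0.0652) and PCNA (0.0891) in DMSO. How the spike-ins were added is not given, and the cause was not tested.

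For dBRD9-A in SMARCB1 cells, no filter gave 652 genes and the fit of the SMARCB1 libraries alone 159. Leaving out a library gave 169 to 422, with 174, 169 and 195 without SMARCB1 DMSO replicate 2, SMARCB1 DMSO replicate 3 and SMARCB1 dBRD9-A replicate 3. Of the 10 genes 0 to 1 were then called, and 0 with DESeq2's size factors (CDK2, adjusted p 0.0542) or the SMARCB1 libraries alone. Over the 600 values of the 10 genes with a library left out, 585 kept their side of the threshold and 15 lost the call. Changes of sign occurred only among values not past the threshold. CCND2 with dBRD9-A in GFP cells, for example, ran from -0.54 to 0.37.

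No pairing of libraries by replicate number was seen, with 0 of 18 same-numbered pairs having deviations correlated above 0.1 (-0.056 to 0.061). This check weighs all tested genes alike and cannot exclude a shared culture or day. With the replicate number as a block, 0 of the 10 genes were called for dBRD9-A in SMARCB1 cells, where CDK2 had 0.12 (adjusted p 0.0695), and no other call of the 10 changed. Of the list genes named for dBRD9-A in GFP cells, E2F6 (adjusted p 0.0616), RBL2 (0.0557), MYBL2 (0.0532) and SKP2 (0.0503) lost the call under the block, and so did the interaction of CDC25B (0.0545). Depth limits CCND2 in GFP cells, with 2 to 15 counts per library.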
